A study of Mus musculus with 4 samples.

Results

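The Hox genes encode homeodomain transcription factors that sit in 4 chromosomal clusters and give cells their position along the body axis. They are numbered by paralog group, and within each cluster the genes at the low-numbered end are switched on earlier and further towards the head than those at the high-numbered end. In the kidney the genes of paralog group 11 (Hoxa11, Hoxc11 and Hoxd11) act together with Eya1 and Pax2 in the mesenchyme that induces the ureteric bud. Hoxb7 is expressed in the ureteric bud and the collecting duct system that grows from it. A total of 38 Hox genes, a family chosen with earlier results of these data known, was followed here. They were taken by gene symbol out of the 21900 protein-coding genes of the RefSeq annotation of the mouse build GRCm38.p6. The Hoxa cluster contributed 10 of them, Hoxb 10, Hoxc 9 and Hoxd 9.

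The study used chromatin immunoprecipitation with sequencing (ChIP-seq), which recovers the DNA bound by a protein with an antibody, to search the distal tubule for direct targets of Foxp1, a forkhead transcription factor. Kidney tubular cells came from newborn Foxp1KspKO mice and newborn littermate controls, with 1 ChIP library and 1 input library (chromatin without immunoprecipitation) for each genotype. KspKO names a deletion by the promoter of the Ksp-cadherin gene, Cdh16, which drives Cre recombinase in the epithelium of renal tubules, so cells of the preparation outside that lineage would keep Foxp1. The labels call the controls littermates with no further allele, give no number of animals behind a library, and do not say whether animals were pooled. They also disagree on the antibody: the antibody field names a Foxp1 polyclonal antibody for the Foxp1KspKO ChIP and rabbit IgG for the control ChIP, while both libraries carry the same FoxP1 name in their descriptions. Libraries are named here by genotype, and each difference between them can come from the genotype or from the antibody, which cannot be told apart.

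The deposited values are gene lists with 1 p-value per gene, all under 0.05, with 4953 distinct genes for the Foxp1KspKO ChIP and 6799 for the control ChIP. A separate list holds 3483 gene symbols that the authors call unique to the control ChIP. No read count, fold enrichment, direction or binding position is given, so the depth is unknown, and a gene that is not listed has no value rather than a value of 0. With 1 library per genotype there is no replicate spread and no test of a difference was made. A lower p-value can reflect more reads as well as more enrichment. The p-values of both libraries are printed side by side, but the gap between them is not a measure of a difference in binding. For some genes the rank within each list is given as well. Neither Foxp1 nor Cdh16 was in any of the lists, so the targeted gene gave no check of the genotype labels. The lists measure chromatin recovery and not expression, and the labelled cell type could not be checked against its markers.

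Most Hox genes were listed for both libraries. Of the 38 genes, 24 (63.2%) were in the Foxp1KspKO list and 33 (86.8%) in the control list, while of all protein-coding genes 20.9% were in the Foxp1KspKO list and 29.0% in the control list. All 24 Hox genes of the Foxp1KspKO list were also in the control list, none was particular to the Foxp1KspKO list and 9 were found for the control ChIP only. Among all protein-coding genes 13.2% were in both lists, 7.63% in the Foxp1KspKO list but not the other, and 15.7% in the control list but not the other. The 5 genes absent from both lists were Hoxa2, a branchial arch gene, Hoxb13, a gene of the prostate, Hoxc8, a thoracic patterning gene, Hoxd4, a hindbrain gene, and Hoxd12, a limb gene. Hox genes are short, with a median length of 3721 bp against 17146 bp for all protein-coding genes. Among the 14014 protein-coding genes within the length range of the Hox genes, 20.0% were in the Foxp1KspKO list and 25.5% in the control list.

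**Figure D1:**
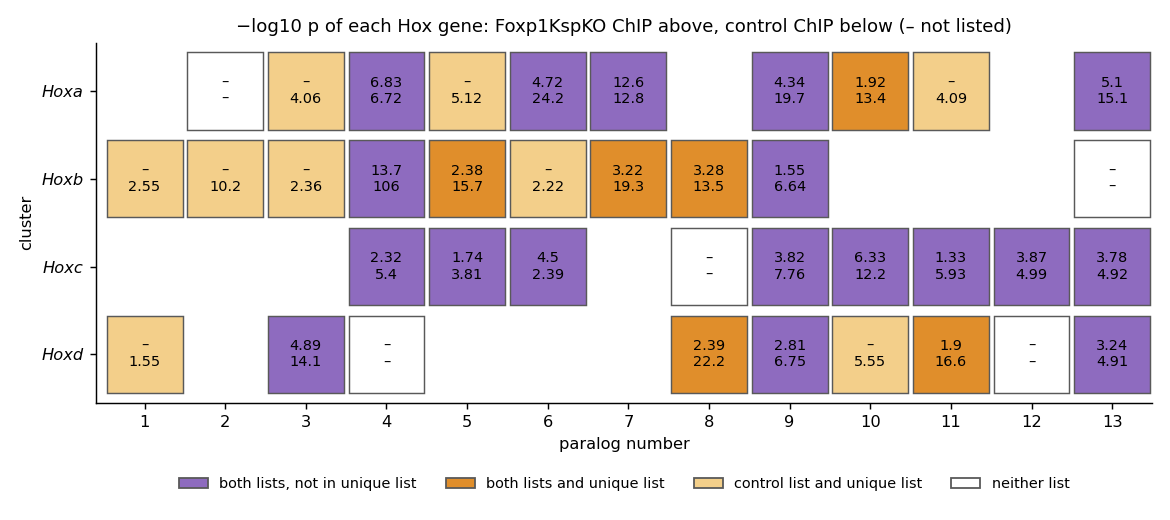
Each box is 1 Hox gene, placed by paralog number (x axis) and cluster (y axis), with −log10 of the deposited p-value in the Foxp1KspKO ChIP above that in the control ChIP and a dash where the gene was not listed; blank places hold no gene analysed here. Colours give list membership: no Hoxc gene was in the unique list, and the genes shown for paralog groups 1 and 2 had no Foxp1KspKO value.

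The listed Hox genes also ranked high, at a median of 23.1% of the Foxp1KspKO list and 15.5% of the control list, counted from the top. Their median −log10 p was 3.53 in the Foxp1KspKO ChIP, where all listed protein-coding genes had 2.27, and 6.72 in the control ChIP, where they had 2.95. High medians were shared by some related groups and not by others. Listed Hox cofactors, described below, had 4.05 (Foxp1KspKO) and 15.1 (control), and kidney partners of group 11 had 4.17 (Foxp1KspKO) and 10.9 (control). Chromatin regulators had 2.53 (Foxp1KspKO), near the value of all listed protein-coding genes, and 7.14 (control). ParaHox, Cdx and Evx genes had 4.93 (Foxp1KspKO) and 4.56 (control). Other ANTP and LIM homeobox genes had 2.47 (Foxp1KspKO) and 2.94 (control), near the values of all listed protein-coding genes in both libraries. A p-value of at most 1e-10 was deposited for 2 Hox genes in the Foxp1KspKO list, Hoxb4 and Hoxa7, and for 14 in the control list. Of all protein-coding genes, 0.237% reached this value in the Foxp1KspKO list and 2.21% in the control list. Within the lowest 5% of p-values of each list lay 3 of the 24 listed Hox genes for Foxp1KspKO (Hoxa4, Hoxa7 and Hoxb4) and 12 of 33 for control, where by construction 4.99% of either whole list did. The family was chosen with earlier results of these data known, so these counts are a description and carry no test.

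Hoxb4, a regulator of hindbrain and neck-level patterning and of blood stem cell expansion, headed the Hox genes of both lists. On chromosome 11 (96318267 to 96321638, GRCm38), it had a deposited p-value of 1.93e-14 in the Foxp1KspKO ChIP, rank 20, and 1.89e-106 in the control ChIP, rank 1 of all genes. The second Hox gene of the Foxp1KspKO list was Hoxa7 (chromosome 6, 52215623 to 52218573), with 2.40e-13 at rank 27, and its control p-value was nearly the same at 1.68e-13, rank 313. Hoxa6, its neighbour in the cluster (52204858 to 52208672), stood in contrast, with a deposited p-value of 1.89e-05 in the Foxp1KspKO ChIP, against 5.96e-25 in the control ChIP, the second lowest of the Hox genes there. Hoxd8 (chromosome 2, 74704615 to 74707933) followed in the control list, with 0.00407 in the Foxp1KspKO ChIP, against 6.49e-23 in the control ChIP. The lowest p-value of the Hoxc cluster belonged to Hoxc10 (chromosome 15, 102966796 to 102971898), a gene of lumbar motor neuron identity, at 4.72e-07 in the Foxp1KspKO ChIP, against 5.96e-13 in the control ChIP.

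The promoter windows of these genes are shown because the lists name genes and no binding position, and the start region is the best defined stretch of each. Each window holds 250 bases before and 50 after a RefSeq start site (GRCm38.p6), and capitals mark matches to the forkhead core TGTTTNC or its reverse complement GNAAACA, which cover the stricter TGTTTAC and GTAAACA. Hoxb4 has the lowest p-value of its cluster in both lists, and Hoxa6 and Hoxd8 have the lowest of theirs in the control list. Hoxa7, chosen after its values were seen, had nearly equal p-values in both libraries, and Hoxd11 is the group 11 gene whose window holds matches. The table had no window for Hoxc10.
Hoxb4 (chr11:96318017-96318316, plus strand): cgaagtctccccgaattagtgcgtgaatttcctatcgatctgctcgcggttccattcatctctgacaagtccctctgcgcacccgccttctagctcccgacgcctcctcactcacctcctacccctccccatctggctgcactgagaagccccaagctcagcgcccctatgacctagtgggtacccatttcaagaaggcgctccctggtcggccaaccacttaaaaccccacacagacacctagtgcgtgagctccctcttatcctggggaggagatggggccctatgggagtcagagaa
Hoxa6 (chr6:52208623-52208922, minus strand): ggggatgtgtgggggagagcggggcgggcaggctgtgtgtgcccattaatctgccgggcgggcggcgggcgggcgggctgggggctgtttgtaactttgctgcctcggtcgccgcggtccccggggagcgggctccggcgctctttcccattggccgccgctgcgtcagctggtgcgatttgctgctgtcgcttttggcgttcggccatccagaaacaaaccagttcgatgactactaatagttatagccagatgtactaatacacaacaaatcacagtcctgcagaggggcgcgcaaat
Hoxd8 (chr2:74704365-74704664, plus strand): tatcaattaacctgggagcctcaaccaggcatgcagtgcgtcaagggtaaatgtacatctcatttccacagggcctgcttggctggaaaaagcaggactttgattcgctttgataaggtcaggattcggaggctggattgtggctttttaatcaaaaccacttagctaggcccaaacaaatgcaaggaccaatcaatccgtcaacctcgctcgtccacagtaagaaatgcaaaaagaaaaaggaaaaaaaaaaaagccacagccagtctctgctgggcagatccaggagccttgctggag
Hoxa7 (chr6:52218524-52218823, minus strand): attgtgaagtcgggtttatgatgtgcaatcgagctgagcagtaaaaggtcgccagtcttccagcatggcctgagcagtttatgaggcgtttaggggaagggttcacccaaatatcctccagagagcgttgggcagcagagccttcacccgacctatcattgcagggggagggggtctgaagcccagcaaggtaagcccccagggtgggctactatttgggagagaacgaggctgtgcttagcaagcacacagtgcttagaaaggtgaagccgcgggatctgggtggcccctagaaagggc
Hoxd11 (chr2:74679308-74679607, plus strand): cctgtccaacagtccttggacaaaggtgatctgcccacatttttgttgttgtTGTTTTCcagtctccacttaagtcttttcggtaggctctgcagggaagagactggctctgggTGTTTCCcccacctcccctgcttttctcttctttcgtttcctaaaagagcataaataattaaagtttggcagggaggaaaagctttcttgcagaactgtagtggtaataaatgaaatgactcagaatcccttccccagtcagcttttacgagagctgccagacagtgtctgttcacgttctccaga
The strict core TGTTTAC was in 0 of the 24 windows available for 22 Hox genes and in 3.65% of all 32851 windows of this length. The looser TGTTTNC, on either strand, was in 3 of the 24 Hox windows, those of Hoxa2, Hoxd10 and Hoxd11, and in 20.5% of all windows. In the Hoxd11 window both matches lie on the printed strand. GC content was 58.0% in the Hoxb4 window, 62.0% for Hoxa6, 46.7% for Hoxd8, 55.7% for Hoxa7 and 45.7% for Hoxd11, where the median of all windows was 52.7%. With windows for 57.9% of the Hox genes, under the 80% needed, a comparison of base composition for the whole family is void.

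In the Hoxa cluster, 6 of 10 genes were in the Foxp1KspKO list and 9 in the control list. Hoxa4, a gene of anterior patterning, had a deposited p-value of 1.47e-07 in the Foxp1KspKO ChIP (rank 203), against 1.89e-07 in the control ChIP (rank 1057). Its p-values were thus nearly equal, and its rank was higher in the Foxp1KspKO list. For Hoxa9, known from blood cell development and leukaemia, the deposited values were 4.57e-05 in the Foxp1KspKO ChIP, against 2.12e-20 in the control ChIP. Hoxa13, which patterns the digits and the urogenital tract (chromosome 6, 52258853 to 52260880), had 7.95e-06 in the Foxp1KspKO ChIP, against 7.83e-16 in the control ChIP. Counted from the top of each list, Hoxa9 stood at 14.6% of the Foxp1KspKO list and 1.88% of the control list, while Hoxa13 stood at 9.39% of the Foxp1KspKO list and 3.32% of the control list. Hoxa10, which shapes the lumbar vertebrae and the uterus, reached 0.0120 in the Foxp1KspKO ChIP, against 3.56e-14 in the control ChIP. The genes listed for the control ChIP alone were Hoxa3, a gene of thymus and parathyroid formation (8.76e-05), Hoxa5, needed for lung development (7.59e-06), and Hoxa11 (8.21e-05).

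The Hoxb cluster had the widest gap in numbers of the 4 clusters, with 5 of 10 genes in the Foxp1KspKO list and 9 in the control list. Hoxb7, the ureteric bud gene (chromosome 11, 96285604 to 96290163), had a deposited p-value of 6.06e-04 in the Foxp1KspKO ChIP, against 5.17e-20 in the control ChIP. Genes near it had the same order: Hoxb8, known for its part in microglia and grooming behaviour, had 5.21e-04 in the Foxp1KspKO ChIP, against 3.18e-14 in the control ChIP, and Hoxb5, a marker gene of blood stem cells, had 0.00414 in the Foxp1KspKO ChIP, against 2.16e-16 in the control ChIP. Hoxb9 was weaker in both libraries, with 0.0283 in the Foxp1KspKO ChIP, against 2.29e-07 in the control ChIP. Towards the low-numbered end the values of the Foxp1KspKO ChIP stopped at Hoxb4. Hoxb3, Hoxb2 and Hoxb1, genes of the hindbrain segments, were listed for the control ChIP only, with deposited p-values of 0.00437, 5.94e-11 and 0.00281, and so was Hoxb6, with 0.00600.

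The Hoxc cluster was the one with equal numbers, 8 of 9 genes in each list and the same 8 in both. Its p-values were also closer between the libraries. Median −log10 p over these genes was 3.80 in the Foxp1KspKO ChIP, against 5.20 in the control ChIP, while the genes in both lists had medians of 4.91 (Foxp1KspKO) and 14.3 (control) for Hoxa, 3.22 (Foxp1KspKO) and 15.7 (control) for Hoxb, and 2.81 (Foxp1KspKO) and 14.1 (control) for Hoxd. Hoxc6, which marks forelimb-level motor neurons (chromosome 15, 102998226 to 103011882), had the lower p-value in the knockout, with 3.16e-05 in the Foxp1KspKO ChIP, against 0.00408 in the control ChIP. Hoxc13, a regulator of hair keratins, and Hoxc12, its neighbour, were similar to each other: Hoxc13 had 1.64e-04 in the Foxp1KspKO ChIP, against 1.19e-05 in the control ChIP, and Hoxc12 had 1.34e-04 in the Foxp1KspKO ChIP, against 1.02e-05 in the control ChIP. Hoxc9, a gene of thoracic motor neuron identity, had 1.52e-04 in the Foxp1KspKO ChIP, against 1.74e-08 in the control ChIP. Hoxc4 and Hoxc5, at the low-numbered end, had p-values above 0.001 in the knockout, Hoxc4 with 0.00479 in the Foxp1KspKO ChIP, against 3.98e-06 in the control ChIP, and Hoxc5 with 0.0183 in the Foxp1KspKO ChIP, against 1.56e-04 in the control ChIP. Weak values were not confined to that end: Hoxc11, described below, had the highest Foxp1KspKO p-value of the cluster, 0.0469.

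In the Hoxd cluster 5 of 9 genes were in the Foxp1KspKO list and 7 in the control list. Hoxd3, a patterning gene of the upper neck vertebrae (chromosome 2, 74711993 to 74748271), was the strongest of them in the Foxp1KspKO ChIP with a deposited p-value of 1.28e-05, and had 7.25e-15 in the control ChIP. Hoxd9 had 0.00155 in the Foxp1KspKO ChIP, against 1.78e-07 in the control ChIP. Hoxd13, a gene of digit formation at the other end of the cluster, had 5.74e-04 in the Foxp1KspKO ChIP, against 1.23e-05 in the control ChIP. Hoxd10, a gene of lumbar motor neurons, and Hoxd1 were listed for the control ChIP alone, at 2.79e-06 and 0.0280, and Hoxd1 was the weakest Hox gene of that list.

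**Figure D2:**
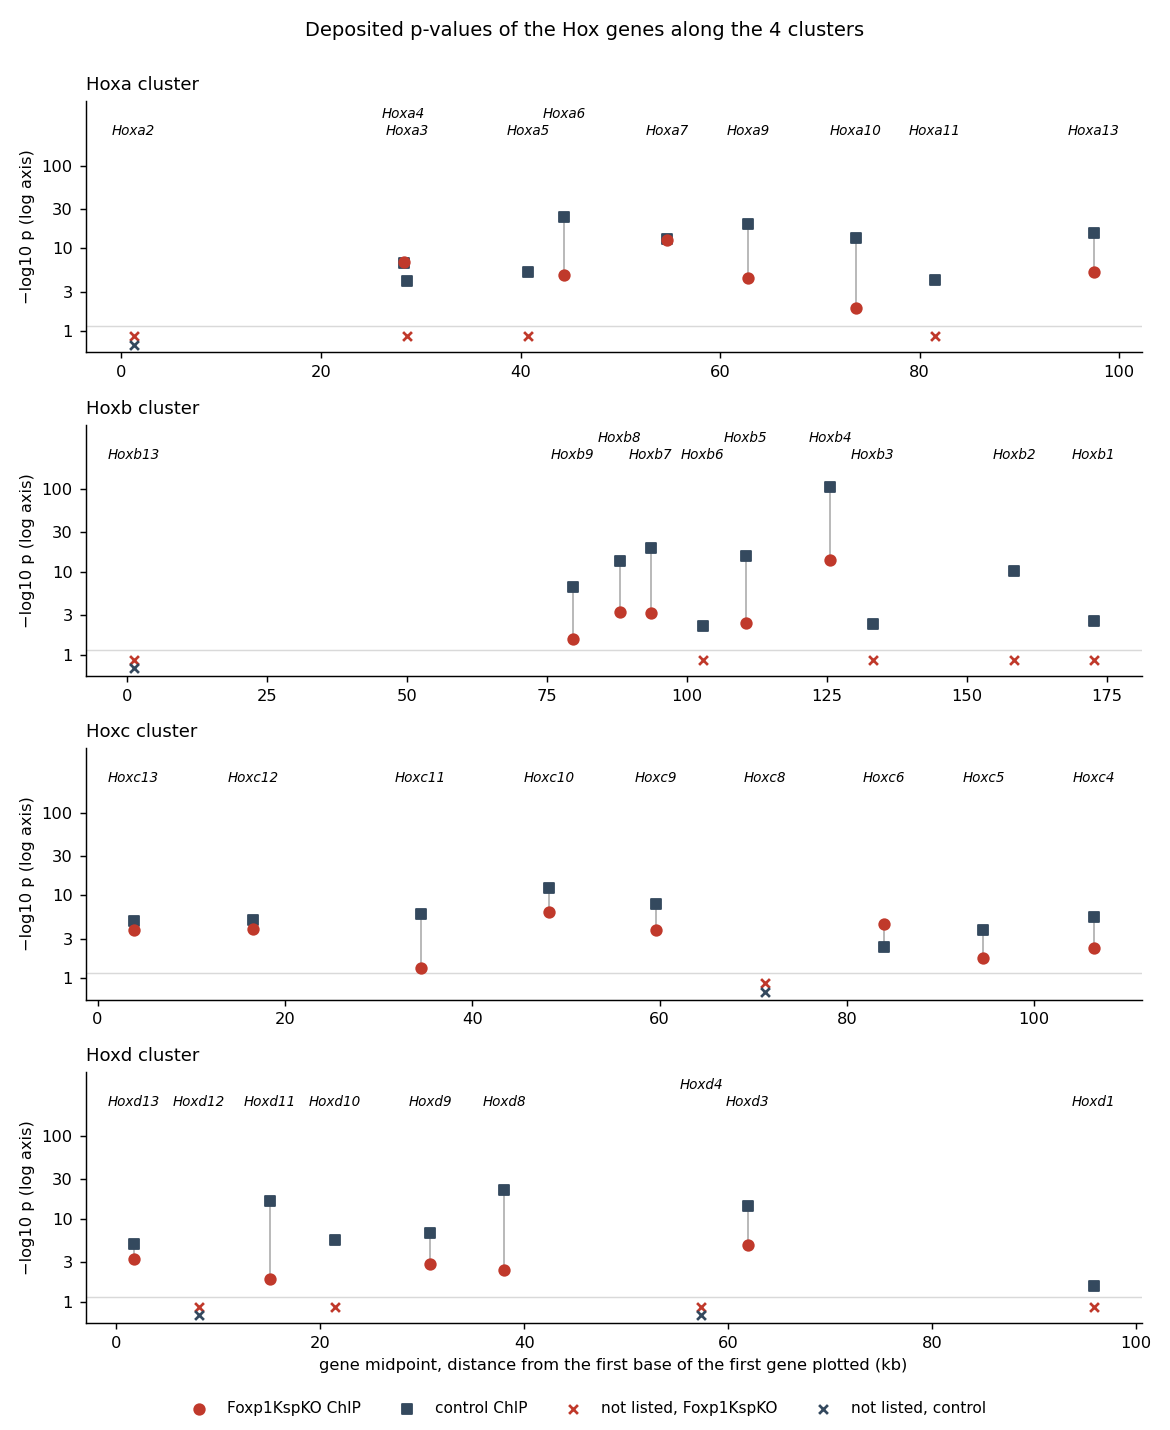
Points give −log10 of the deposited p-value (y axis, logarithmic) of each Hox gene at its midpoint along the cluster (x axis, kb from the first base of the first gene plotted), for the Foxp1KspKO ChIP (red circles) and the control ChIP (dark squares), with crosses for genes not listed. Hoxb4 in the control ChIP stands apart at 106, and the pairs of points lie closest together for Hoxa4 and Hoxa7.

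The annotated spans of some Hox genes overlap, and overlapping genes often had unlike p-values. The region counted for a gene is not stated, so whether such genes shared counted sequence was not tested. The long annotation of Hoxb3 contains all of Hoxb4 (3372 bp), yet Hoxb3 was not in the Foxp1KspKO list and had a deposited p-value of 0.00437 in the control ChIP, where Hoxb4 was first. Hoxd3 contains Hoxd4 (7183 bp), and Hoxd4 was in neither list. Hoxd11 and Hoxd10 overlap by 2744 bp, and both were in the control list, with deposited p-values of 2.34e-17 (Hoxd11) and 2.79e-06 (Hoxd10). Of these, only Hoxd11 was in the Foxp1KspKO list, at 0.0126. The annotation of Hoxa3 contains Hoxa4, Hoxa5 and Hoxa6, and Hoxa3 had no Foxp1KspKO value and the weakest control value of these 4 genes. Unbroken runs of neighbouring genes were long in the control list, with 9 genes from Hoxa3 to Hoxa13 and 9 from Hoxb9 to Hoxb1. The only unlisted gene of each of these clusters, Hoxa2 or Hoxb13, lies at an end, so these runs restate the counts. In the Foxp1KspKO list the longest runs were 5 genes, from Hoxc13 to Hoxc9, and 4 genes, from Hoxa6 to Hoxa10. The Hoxc run was the same in the control list.

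By paralog number, the genes at the low-numbered end were, among the Hox genes, the ones most often missing from the Foxp1KspKO list. Of the 11 genes followed in groups 1 to 4, 4 were in the Foxp1KspKO list and 9 in the control list. Their Foxp1KspKO share of 36.4% was still above the 20.9% for protein-coding genes as a whole. Their control share was 81.8%, where protein-coding genes as a whole had 29.0%. Of 11 genes in groups 5 to 8, 8 were in the Foxp1KspKO list and 10 in the control list, and of 16 in groups 9 to 13, 12 were in the Foxp1KspKO list and 14 in the control list. Group 9 was listed in full, with all 4 genes in both lists, as were the 2 genes of group 7. None of the 4 genes followed in groups 1 and 2 was in the Foxp1KspKO list, while 3 of them were in the control list. In group 3, 1 of 3 genes was in the Foxp1KspKO list, and in group 4, 3 of 4 were. The 4 listed genes of groups 1 to 4 were not weak there, with a median −log10 p of 5.86. Listed genes of groups 5 to 8 had 3.25 in the Foxp1KspKO ChIP, and those of groups 9 to 13 had 3.51. With so few genes per group, these counts describe the lists and were not tested.

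Of the kidney genes of paralog group 11, Hoxd11 (chromosome 2, 74679558 to 74687016) had a deposited p-value of 0.0126 in the Foxp1KspKO ChIP, against 2.34e-17 in the control ChIP. Hoxc11 (chromosome 15, 102954526 to 102956701) had 0.0469 in the Foxp1KspKO ChIP, among the highest p-values of that list at rank 4842 of 4953, and 1.19e-06 in the control ChIP. Hoxa11 (chromosome 6, 52242105 to 52245810) was not in the Foxp1KspKO list and had 8.21e-05 in the control ChIP. In the Foxp1KspKO list the group 11 genes were thus weak or absent, with Hoxd11 at 65.0% and Hoxc11 at 97.8% of the list counted from its top, while in the control list they stood at 2.81% (Hoxd11), 19.2% (Hoxc11) and 33.5% (Hoxa11). A set of 10 genes that work with group 11 in the metanephric mesenchyme or its dialogue with the ureteric bud was also counted. Of these, 6 (60.0%) were in the Foxp1KspKO list and 7 (70.0%) in the control list. All protein-coding genes had shares of 20.9% (Foxp1KspKO) and 29.0% (control). Among the 10 genes, the lowest p-values in either library were those of Pax2 and Sall1. Pax2 had 1.84e-04 in the Foxp1KspKO ChIP, against 4.48e-28 in the control ChIP. Sall1 had 5.16e-11 in the Foxp1KspKO ChIP, against 2.31e-22 in the control ChIP.

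Among the 24 genes listed for both libraries, the lower p-value was that of the Foxp1KspKO ChIP for Hoxa4 and Hoxc6 and that of the control ChIP for the other 22. The control ChIP had the lower one for 72.2% of all protein-coding genes in both lists. The median difference in −log10 p, Foxp1KspKO minus control, was −5.50 over these Hox genes and −1.36 over the 2900 protein-coding genes, and ranged from −92.01 for Hoxb4 to 2.11 for Hoxc6. Hoxa4 and Hoxa7 were the 2 genes within a difference of 1. The lists differ in length, so ranks were compared as a percent of each list counted from its top. On that scale Hoxa4, Hoxa7, Hoxc6, Hoxc12 and Hoxc13 stood nearer the top of the Foxp1KspKO list and the other 19 nearer the top of the control list. Hoxc10 was nearly level among the 19, at 5.13% of the Foxp1KspKO list and 5.03% of the control list, and so was Hoxd13, at 27.3% (Foxp1KspKO) and 25.9% (control). Both of these genes had the smaller rank number in the shorter Foxp1KspKO list. Across the 24 genes, which share the same pair of libraries, the Spearman correlation of the p-values was 0.25, near the 0.27 across all protein-coding genes in both lists.

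**Figure D3:**
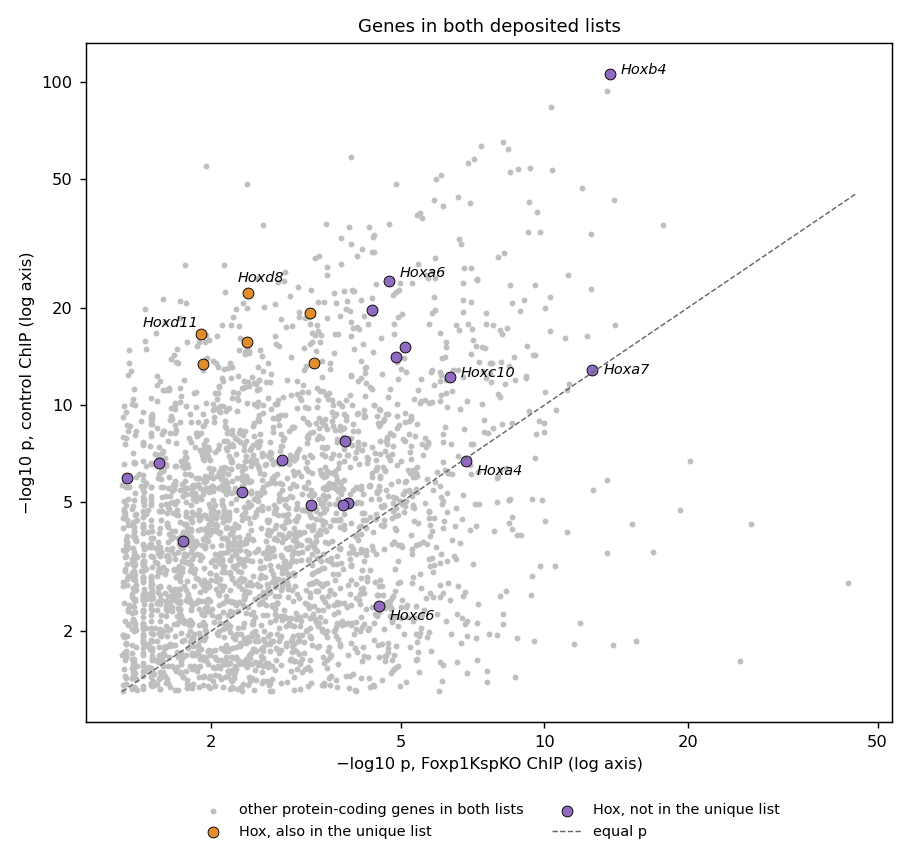
Each point is a protein-coding gene in both lists, with −log10 of the deposited p-value in the Foxp1KspKO ChIP (x axis) and the control ChIP (y axis), both axes logarithmic; the dashed line marks equal values. Of the 24 Hox genes (coloured), 22 lie above the line, and the 6 that are in the unique list lie to the upper left.

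The unique list of the authors held 15 of the 38 Hox genes, against 15.1% of all protein-coding genes. They were Hoxa3, Hoxa5, Hoxa10 and Hoxa11, then Hoxb1, Hoxb2, Hoxb3, Hoxb5, Hoxb6, Hoxb7 and Hoxb8, and Hoxd1, Hoxd8, Hoxd10 and Hoxd11. No Hoxc gene was among them. All 9 Hox genes absent from the Foxp1KspKO list but in the control list were in the unique list, where 92.6% of such protein-coding genes were. The other 6 (Hoxa10, Hoxb5, Hoxb7, Hoxb8, Hoxd8 and Hoxd11) were in the Foxp1KspKO list as well, so for them unique did not mean absent. Of all protein-coding genes in both lists, 3.90% were in the unique list. Over the whole table, 116 unique symbols were also in the Foxp1KspKO list, with p-values of at least 1.93e-04 there and of at most 3.35e-13 in the control ChIP. The 6 Hox genes are among these 116 symbols, so they lie inside these limits by construction. Their p-values were 5.21e-04 or above in the Foxp1KspKO ChIP and 3.56e-14 or below in the control ChIP. Whether other genes inside both limits are in the unique list was not examined. Each Hoxc gene in both lists had a control p-value above the limit, the lowest being 5.96e-13 for Hoxc10. Hoxb4, Hoxa6, Hoxa9, Hoxa13, Hoxd3 and Hoxa7 met the control limit but had Foxp1KspKO p-values under 1.93e-04, and none was in the unique list.

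The clusters also hold microRNA genes, which encode short RNAs that pair with mRNAs through a seed at bases 2 to 8 and that are known to target Hox transcripts. Of the 34 noncoding genes annotated within the clusters or up to 20 kb beyond them, 4 (11.8%) were in the Foxp1KspKO list and 5 (14.7%) in the control list. These shares were above those of all microRNA genes and of all long noncoding genes, which are given below. All 5 listed genes lay inside a cluster. The 2 families are shown with the seed in capitals, from RefSeq.
mmu-miR-196b-5p: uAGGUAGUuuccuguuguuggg
mmu-miR-196a-5p: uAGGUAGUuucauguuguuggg
mmu-miR-10a-5p: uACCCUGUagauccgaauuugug
mmu-miR-10b-5p: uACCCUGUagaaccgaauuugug
The members of each family share their seed and differ at 1 base, given here with the base of the first-named RNA first and counted from 1 at the 5′ end: C12A between miR-196b-5p and miR-196a-5p, and U12A between miR-10a-5p and miR-10b-5p. Mir196b lies between Hoxa9 and Hoxa10 and had a deposited p-value of 3.02e-04 in the Foxp1KspKO ChIP, against 1.27e-22 in the control ChIP, lower than either neighbour in the control ChIP. Mir196a-2, between Hoxc10 and Hoxc9, had 1.50e-06 in the Foxp1KspKO ChIP, against 9.07e-11 in the control ChIP. Its copy Mir196a-1 near Hoxb9, which encodes the same mature miR-196a-5p, was in neither list. Mir10a, beside Hoxb4, was not in the Foxp1KspKO list and had 6.34e-04 in the control ChIP, and Mir10b, within the Hoxd3 span, was in neither. Of all 1228 microRNA genes, 6.68% were in the Foxp1KspKO list and 7.82% in the control list.

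Among long noncoding genes of the clusters, 5730596B20Rik, inside the Hoxa3 annotation, had a deposited p-value of 2.64e-07 in the Foxp1KspKO ChIP, against 8.56e-24 in the control ChIP. Hotair, the Hoxc transcript known from work on Polycomb silencing, had 0.00265 in the Foxp1KspKO ChIP, against 1.86e-06 in the control ChIP. Hotairm1, Hottip, Hoxa11os and Haglr were in neither list, and over the annotation 1.92% of long noncoding genes were in the Foxp1KspKO list and 2.35% in the control list.

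Genes beyond the cluster ends were examined for comparison. Of the 40 nearest protein-coding genes outside the Hox family, 5 on either side of each cluster, 9 were in the Foxp1KspKO list and 20 in the control list. The Foxp1KspKO share, 22.5%, is close to the 20.9% of all protein-coding genes in that list, while the control count of 20 of 40 is above the 29.0% of all protein-coding genes in the control list. Their strongest member was Evx2, a homeobox gene at the Hoxd13 end of the Hoxd cluster (chromosome 2, 74652989 to 74661520), whose deposited p-value was 6.59e-21 in the Foxp1KspKO ChIP, against 2.02e-07 in the control ChIP. That order is the opposite of the one at the listed Hoxd genes. Evx1, its relative beyond Hoxa13, was not in the Foxp1KspKO list and had 0.0175 in the control ChIP. Hibadh, a gene of valine breakdown next to Evx1, had 0.00414 in the Foxp1KspKO ChIP, against 1.63e-12 in the control ChIP, and Agps, of ether lipid synthesis, had 2.02e-05 in the Foxp1KspKO ChIP, against 2.48e-11 in the control ChIP. Chn1, Skap2, Lnpk, Atf2 and Nfe2l3 were also in both lists, and Snf8 was in the Foxp1KspKO list alone, at 0.0114. Cbx5, Jazf1, Hnrnpa3, Snx10, Mtx2, Atf7, Atp5g3, Atp5g2, Cbx1, Snx11 and Hnrnpa1 were listed for the control ChIP only, with p-values from 1.25e-06 for Cbx5 to 0.0496 for Hnrnpa1.

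Hox proteins bind DNA together with the TALE homeodomain cofactors. Of 9 cofactor genes, 5 (55.6%) were in the Foxp1KspKO list and 7 (77.8%) in the control list. The shares of all protein-coding genes were 20.9% (Foxp1KspKO) and 29.0% (control). Pbx2 had a deposited p-value of 7.62e-07 in the Foxp1KspKO ChIP, against 5.56e-42 in the control ChIP, and Meis1 was not in the Foxp1KspKO list and had 7.16e-18 in the control ChIP. Chromatin regulators of the Hox clusters, among them Trithorax and Polycomb genes, were also counted. Of these 26 genes, 14 (53.8%) were in the Foxp1KspKO list and 20 (76.9%) in the control list. By the lower of the Foxp1KspKO and control p-values, the first was Jarid2, a Polycomb cofactor (0.0172 in the Foxp1KspKO ChIP, against 8.79e-28 in the control ChIP). Bmi1, a Polycomb subunit, followed (5.37e-06 in the Foxp1KspKO ChIP, against 1.34e-24 in the control ChIP). Kdm6b, an eraser of the Polycomb mark, came next (0.00510 in the Foxp1KspKO ChIP, against 8.15e-17 in the control ChIP). For all 13 chromatin regulators in both lists the control p-value was the lower. Of all protein-coding genes in both lists, that was so for 72.2%.

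Homeobox genes outside the clusters served as the most alike group. Of 37 other genes of the ANTP and LIM classes, 19 were in the Foxp1KspKO list (51.4%) and 22 in the control list (59.5%), with a median −log10 p of 2.47 in the Foxp1KspKO ChIP and of 2.94 in the control ChIP. All protein-coding genes had shares of 20.9% (Foxp1KspKO list) and 29.0% (control list). The 37 genes included 3 in the Foxp1KspKO list alone, Dlx1, Lhx5 and Nkx2-6, where 7.63% of all protein-coding genes were in that list alone. For 11 of the 16 in both lists the control p-value was the lower. That was so for 72.2% of all protein-coding genes in both lists. Both counts were near these shares. By the lower of the Foxp1KspKO and control p-values, the first was Nkx6-1, a gene of motor neuron and beta cell identity. It had 0.0191 in the Foxp1KspKO ChIP, against 1.08e-21 in the control ChIP. Dlx2 followed with 6.22e-04 in the Foxp1KspKO ChIP, against 2.19e-19 in the control ChIP. Msx1 had 0.0171 in the Foxp1KspKO ChIP, against 1.13e-10 in the control ChIP. Within the Foxp1KspKO list the lowest p-value of the group was that of Lhx4, 3.94e-06, against 3.98e-06 in the control ChIP. Emx1 came next with 5.40e-06 in the Foxp1KspKO ChIP, against 2.53e-04 in the control ChIP. Dlx6 had 9.75e-05 in the Foxp1KspKO ChIP, against 0.0168 in the control ChIP. In the ParaHox, Cdx and Evx genes, the closest relatives of the Hox genes, 4 of 8 were in each list and 3 in both, and Evx2, Pdx1 and Cdx2 were the strongest. Pdx1, the pancreas regulator, had 7.26e-07 in the Foxp1KspKO ChIP, against 2.05e-07 in the control ChIP, and Cdx2, the intestinal regulator, had 1.91e-04 in the Foxp1KspKO ChIP, against 0.00365 in the control ChIP.

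**Figure D4:**
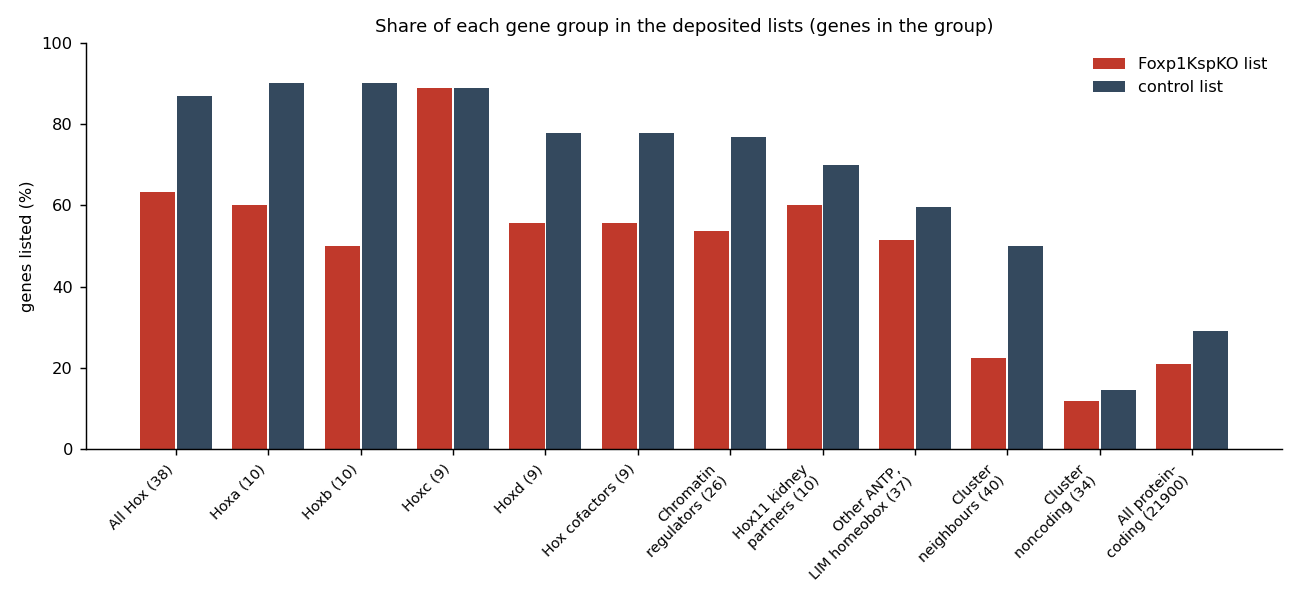
Bars give the percent of genes of each group in the Foxp1KspKO list (red) and in the control list (dark), with the number of genes in the group in brackets. The Hox genes as a whole reach 63.2% in the Foxp1KspKO list and 86.8% in the control list, the Hoxc cluster 88.9% in both, and protein-coding genes overall 20.9% for Foxp1KspKO and 29.0% for control.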

How the data were processed

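Per the submitters' processing notes, reads were handled with FastQC, Trimmomatic, Bowtie2, edgeR and deepTools, on GRCm38 (mm10). Versions and the role of each tool are not stated. The deposited p-values, 1 per gene, are the authors' own. No source used here gives the test behind them, the library they were set against, the region counted for a gene or any adjustment. Sheet names were matched to sample descriptions to assign the lists to the Foxp1KspKO ChIP and the control ChIP.

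Hox genes were matched by symbol, and all other genes by NCBI gene number, keeping the lowest p-value of a repeated gene. One further gene of the family, and some genes that the naming rule below covers, are not reported here. A p-value shared with another gene was held by 10 of 24 Hox genes in the Foxp1KspKO list and 12 of 33 in the control list, against 61.0% of all genes in the Foxp1KspKO list and 67.2% in the control list. Tied genes take the best rank of their tie. The planned tests were counts and medians only, read against all 21900 protein-coding genes. A planned comparison of homeodomain protein sequences was not made. The members and the 7 related gene lists were chosen with earlier results of these data known. Every one of the 38 Hox genes is named. Of the other gene lists, the 3 lowest p-values in either library were named, and of cluster neighbours and noncoding genes those listed. A few unlisted noncoding genes, the Foxp1KspKO-only homeobox genes, and Lhx4, Emx1 and Dlx6 were named after their values were seen. The adjustment code was tested on simulated p-values. Python 3.11.15, pandas 2.3.3, NumPy 2.4.6, SciPy 1.17.1 and Matplotlib 3.10.9 were used.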

Additional observations from a re-analysis of the deposited data

How the results depend on the processing

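The Hox counts depend on the p-value required and not on how genes were matched. With a p-value of at most 0.001, 15 Hox genes counted as listed for the Foxp1KspKO ChIP and 28 for the control ChIP, and 14 passed in both. At 1e-10 there were 2 in the Foxp1KspKO list, 14 in the control list and 2 in both. Benjamini-Hochberg adjustment over all protein-coding genes, with unlisted genes at the highest possible value, left 19 for Foxp1KspKO and 32 for control. When a gene counted as unique only if the Foxp1KspKO list did not hold it, this left 9 of the 15 Hox genes. With unlisted Hox genes set at 0.05, the median −log10 p was 2.12 for Foxp1KspKO and 5.74 for control. Over all annotated genes in place of the protein-coding ones, 9.90% were in the Foxp1KspKO list and 13.6% in the control list. Matching by NCBI gene number changed none of the 4 Hox counts (Foxp1KspKO list, control list, both lists and unique list), and keeping the highest p-value of repeated genes changed neither median. No paired analysis was possible because each genotype has 1 ChIP library, and for the same reason no library could be left out. Depth is unknown, so a Hox gene missing from a list cannot be told apart from one that too few reads covered.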
